A study of Mus musculus with 10 samples.

Results

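A set of 1971 gene symbols had ARID2-enriched transcription start sites (TSSs) at both P28 and P28.5 in mouse spermatogenic cells, out of 4831 symbols with such a TSS at either age. Members were selected on the measured ARID2 signal. A symbol belonged to the set when it stood in the deposited list of the ARID2-enriched cluster (cluster-1) of each age, and all its listed positions were used. These genes made up 48.1% of the 4095 symbols at P28 and 72.8% of the 2707 symbols at P28.5. Over the 21774 protein-coding genes of RefSeq, 16.8% were listed at P28, 11.6% at P28.5 and 8.48% at both. The other symbols were 2124 found only at P28 and 736 found only at P28.5.

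ARID2 was mapped by CUT&RUN, in which an antibody tethers a nuclease that cuts out the chromatin around its target, and the released fragments are sequenced. Cells came from CD1 males whose spermatogenesis was synchronized by WIN18,446, an inhibitor of retinoic acid synthesis, given at 100 µg/g from P1 to P10 and followed by retinoic acid at P11. P28 thus lies 17 days and P28.5 17.5 days after retinoic acid, and both isolates were enriched for late prophase-I and metaphase spermatocytes rather than pure. Their makeup was not the same, since round spermatids were more numerous and leptotene and zygotene spermatocytes scarcer in the P28.5 tubules. A difference between the lists cannot be told apart from this difference in cells, or from a different cluster border or background at each age. The P28 list was larger, with 7144 distinct positions against 5193 at P28.5. The study also reports far more ARID2 peaks called at P28, and a larger share of enriched TSSs overlapping a peak. Each age had 2 ARID2 libraries, 2 libraries for the ATPase BRG1 and 1 control without primary antibody. No treatment differed between the ages, and no unsynchronized group was used here.

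ARID2 is a subunit specific to PBAF, a form of the SWI/SNF chromatin remodeler that slides or evicts nucleosomes, with BRG1 (encoded by Smarca4) as its motor. Such complexes are often found at promoters, where transcription by RNA polymerase II starts. Many genes have several start sites, which can lie a few bases apart in one promoter or far apart in alternative promoters.

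Each list gives a position and a gene symbol, and neither the signal nor the strand. The authors made it from the average of both ARID2 libraries, so there was no spread between replicates, no read depth behind a single TSS, and no test of a difference between the ages. For the same reason the signal of TSSs just inside and just outside the cluster cannot be given. Where a listed position equalled the end of a RefSeq transcript, it was nearly always the lower coordinate. Of 8666 distinct positions of all genes at either age, 3999 matched a plus-strand 5′ end and 763 a minus-strand 3′ end, but 8 matched a minus-strand 5′ end and 0 a plus-strand 3′ end. For a minus-strand gene, a listed position can thus be where a transcript ends and not where it starts. A position missing from a list means only that it was not in cluster-1 at that age. Since membership rests on the ARID2 signal, every count of listed genes and positions below is a description without a test. By RefSeq's GRCm38.p6 annotation, 1847 members were protein-coding, 91 were long noncoding RNAs, 18 were miRNA genes, and 4 symbols could not be matched.

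The promoters of 4 members show what a kept, a lost and a gained start look like at the level of sequence. They are RefSeq promoters of GRCm38.p6, each running from 250 bases before to 50 after an annotated start, 5′ to 3′ on the plus strand, with every CpG in capitals. The Odf2 window (chr2:29889740-29890039) held 8 positions kept at both ages. The first Ahcyl2 window (chr6:29768193-29768492) held 2 kept positions, and the second (chr6:29859346-29859645) held 2 that were listed at P28 alone. The Usp2 window (chr9:44084670-44084969) held 2 positions listed at P28 alone, and the Il3ra window (chr14:14346245-14346544) held 5 listed at P28.5 alone.
Odf2, kept start: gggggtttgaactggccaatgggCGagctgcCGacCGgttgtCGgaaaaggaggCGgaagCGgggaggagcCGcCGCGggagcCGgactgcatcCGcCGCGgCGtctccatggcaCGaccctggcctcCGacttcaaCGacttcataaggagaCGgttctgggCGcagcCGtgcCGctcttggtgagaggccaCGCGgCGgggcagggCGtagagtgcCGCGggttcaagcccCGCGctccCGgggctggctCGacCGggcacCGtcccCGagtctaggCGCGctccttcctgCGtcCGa
Ahcyl2, kept start: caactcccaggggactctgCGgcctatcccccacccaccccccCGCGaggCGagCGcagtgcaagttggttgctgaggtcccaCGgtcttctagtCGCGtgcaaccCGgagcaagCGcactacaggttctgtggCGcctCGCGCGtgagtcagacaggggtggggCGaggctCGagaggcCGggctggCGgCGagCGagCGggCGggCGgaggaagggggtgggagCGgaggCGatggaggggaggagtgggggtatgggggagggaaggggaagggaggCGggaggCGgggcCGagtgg
Ahcyl2, lost start: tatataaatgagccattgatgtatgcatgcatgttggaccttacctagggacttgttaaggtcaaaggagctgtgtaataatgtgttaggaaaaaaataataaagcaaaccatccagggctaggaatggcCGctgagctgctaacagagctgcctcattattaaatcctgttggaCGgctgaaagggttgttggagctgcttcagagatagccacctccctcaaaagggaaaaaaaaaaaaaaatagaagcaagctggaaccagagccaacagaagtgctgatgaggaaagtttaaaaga
Usp2, lost start: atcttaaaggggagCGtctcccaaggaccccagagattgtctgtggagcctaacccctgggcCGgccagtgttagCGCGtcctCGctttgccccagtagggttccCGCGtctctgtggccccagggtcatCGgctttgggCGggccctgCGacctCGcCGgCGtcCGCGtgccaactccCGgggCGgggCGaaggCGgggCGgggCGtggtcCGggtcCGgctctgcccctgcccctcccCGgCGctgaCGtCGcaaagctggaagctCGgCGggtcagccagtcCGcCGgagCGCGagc
Il3ra, gained start: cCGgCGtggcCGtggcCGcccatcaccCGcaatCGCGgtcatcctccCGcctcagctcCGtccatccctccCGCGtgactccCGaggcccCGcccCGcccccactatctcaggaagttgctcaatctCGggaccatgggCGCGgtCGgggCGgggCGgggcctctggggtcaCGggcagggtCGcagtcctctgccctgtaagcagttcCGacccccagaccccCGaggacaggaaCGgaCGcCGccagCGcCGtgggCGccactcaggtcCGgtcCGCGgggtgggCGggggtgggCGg

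The windows held 38 CpGs at Odf2, 28 at the kept and 2 at the lost Ahcyl2 start, 33 at Usp2 and 35 at Il3ra. The Ahcyl2 pair thus differed widely in CpG, whereas the lost Usp2 start was as CpG-rich as the kept and gained ones.

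Most genes kept exactly the same start positions. The positions of 1635 members (83.0%, 95% Wilson interval 81.2 to 84.5%, counting error only) were identical at P28 and P28.5. A further 155 (7.86%, 6.76 to 9.14%) only lost positions, 118 (5.99%, 5.02 to 7.12%) only gained them, 15 (0.761%) did both, and 48 (2.44%) had no position in common although their symbol stood in both lists. In all, 3663 positions were kept, 301 were lost and 273 were gained. Kept positions were 92.4% of the members' 3964 positions at P28 and 93.1% of their 3936 at P28.5.

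The share of unchanged genes fell with the number of positions a gene had. By construction, a member with 1 position over both ages cannot change, and 892 members were of this kind. Among the 517 members with 2 positions 74.9% were unchanged, among the 482 with 3 to 5 positions 64.9%, and among the 80 with 6 or more 53.8%. Over the 1079 members with at least 2 positions, 743 (68.9%) were unchanged. Their positions lay close together, with a median of 149 bp between the outermost ones and over 2000 bp in 137 genes.

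**Figure D1:**
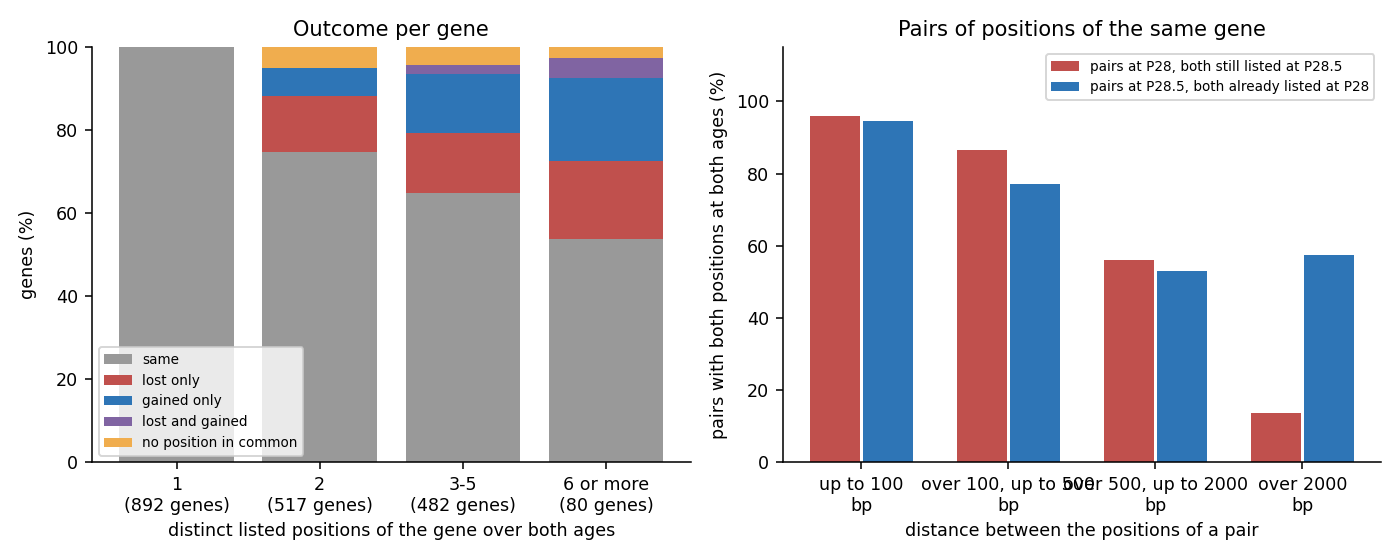
Left, the percentage of genes (y) with each outcome, by the number of distinct listed positions of the gene over both ages (x). Right, the percentage of pairs of positions of the same gene in which both were listed at both ages (y), by the distance between them (x), for pairs listed at P28 (red) and at P28.5 (blue). The unchanged share drops from 74.9% of genes with 2 positions to 53.8% of genes with 6 or more, and of P28 pairs over 2000 bp apart 13.7% were both still listed.

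Positions near each other mostly shared their fate, and distant ones did so less often. Of 2471 pairs of P28 positions up to 100 bp apart in the same gene, 98.8% were both listed or both absent at P28.5. This share was 88.8% of 1131 pairs over 100 and up to 500 bp apart, 61.2% of 242 pairs up to 2000 bp apart, and 25.9% of 255 pairs at longer distances. Pairs with both positions still listed were 96.1%, 86.6%, 56.2% and 13.7%. Read backwards, from pairs listed at P28.5 to P28, 98.4%, 80.4%, 59.4% and 57.4% shared their fate. The P28 pairs came from 755, 375, 76 and 97 genes, and the P28.5 pairs from 766, 398, 82 and 19. Pairs of one gene share positions and are not independent, and the signal was clustered in windows that overlap for near positions. A member must be listed at both ages, which limits how often both positions of a pair can be absent. As 92.4% of P28 positions were kept, unrelated positions would also often share their fate, and no share for unrelated pairs was computed.

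Odf2, which encodes a protein of centriole appendages and of the sperm tail, had the most positions. All 12 were listed at both ages, over 1058 bp. Sun1, whose inner nuclear membrane protein tethers telomeres to the nuclear envelope in meiosis, also kept 12, of which 9 were consecutive bases. Ttc3 kept 11 within 67 bp.

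The next genes in number of kept positions were Jun with 10, and Anapc15, Bcas3, Hnrnph1, Hnrnpr, Mbtd1 and Mink1 with 9 each. Hnrnph1, a splicing regulator, kept its 9 and gained 2 at 424 and 444 bp from the nearest kept one. Jun, a subunit of the transcription factor AP-1, is on the minus strand, and its 10 positions lay 2 to 211 bp upstream of its annotated 5′ end.

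**Figure D2:**
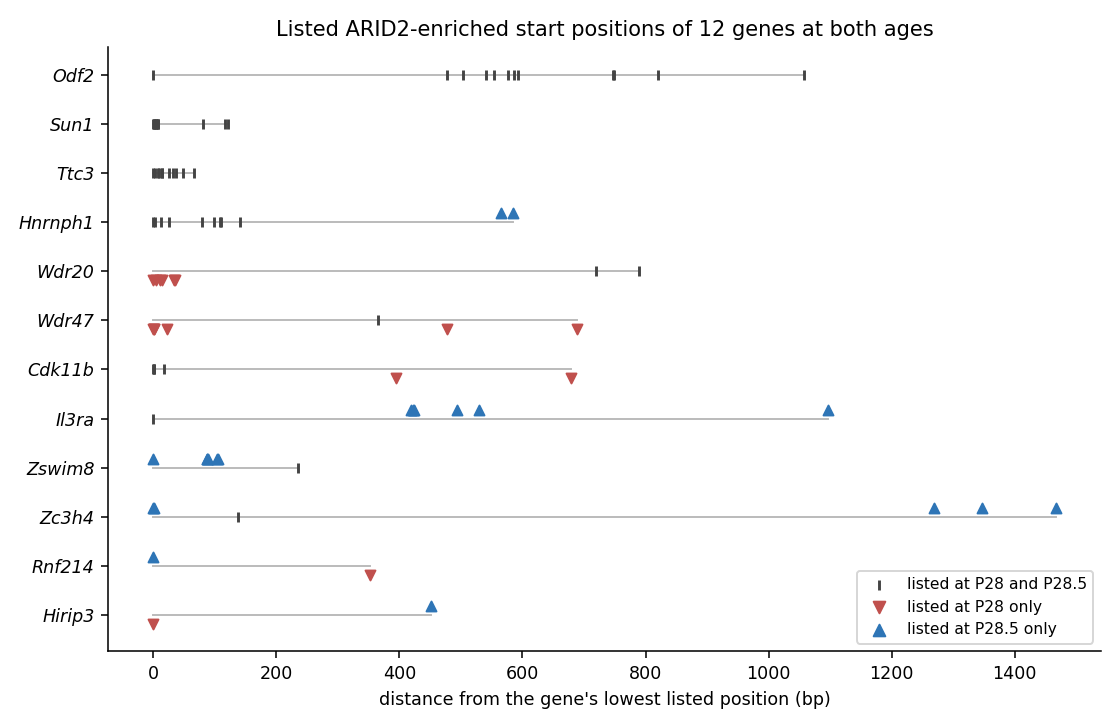
Listed positions of 12 genes, as the distance in bp from the gene's lowest listed coordinate (x), with 1 row for each gene. Black ticks stand for both ages, red triangles for P28 only and blue triangles for P28.5 only. Odf2, Sun1 and Ttc3 kept every position, Wdr20 and Wdr47 lost groups of neighbouring positions, and Il3ra, Zswim8 and Zc3h4 gained them.

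In the genes with the most lost positions, losses often took groups of neighbouring starts away. Many other genes lost only 1 position. Usp2, a ubiquitin-specific protease, fell from 11 positions to 5. The kept ones lay at its first promoter, 2 lost ones lay 2249 and 2272 bp from the nearest kept position, and 4 lost ones lay 17748 to 18110 bp from it, at a downstream promoter. Wdr20, whose product activates deubiquitinases, fell from 8 to 2, and its 6 lost positions lay within 35 bp of each other and 685 to 720 bp upstream of the nearest kept one. Wdr47 fell from 7 to 1, with 4 lost positions 343 to 366 bp upstream of the kept start and 2 lost ones 112 and 322 bp downstream.

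Ppara, a nuclear receptor for fatty acids, fell from 6 to 2, and its lost positions lay 212, 521, 629 and 35754 bp away. Arhgap29, Asb1, Rcor1 and Gm5859 also lost 4 positions each, and the first 3 of these had no position in common.

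Gains also came in groups in the genes with the most gained positions, and many other genes gained only 1. Il3ra, a cytokine receptor subunit, had 1 position at P28 and 7 at P28.5, with the 6 new ones 419 to 1096 bp downstream. Zswim8, an adaptor of a ubiquitin ligase, also rose from 1 to 7, with its new positions 130 to 236 bp upstream of the kept start. Zc3h4, which restrains noncoding transcription, rose from 1 to 6.

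Mga, a repressor of germ cell genes, gained 5 positions 362 to 417 bp upstream of its nearest kept one and lost 1 that lay 24677 bp away. Cyhr1, Fam221a and Nphp4 gained 4 each. Nsd1, a histone H3 lysine methyltransferase, had 2 positions at P28 and 4 others at P28.5, at least 1415 bp apart.

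Lost positions lay farther from the starts that remained than gained positions did. The distance from a lost position to the nearest position of the gene at P28.5 had a median of 1595 bp (quartiles 321 and 19445 bp). For gained positions and the gene's nearest position at P28 the median was 418 bp (quartiles 162 and 1209 bp). Over 2000 bp away were 148 of 301 lost positions (49.2%), in 118 genes, and 59 of 273 gained positions (21.6%), in 42 genes.

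They also differed in place. Within 2000 bp of an annotated 5′ end of their own gene were 98.4% of kept, 97.1% of gained and 68.4% of lost positions. A further 24.6% of lost positions lay outside their own gene, against 1.06% of kept ones. The contrast was not particular to members. Of positions of genes listed at P28 alone, 67.4% lay near an own 5′ end and 19.8% outside the gene, and for genes listed at P28.5 alone 97.3% and 1.91%. Where a minus-strand transcript ends (its 3′ end) lay 13.3% of lost, 1.15% of kept and 0.366% of gained positions. For genes listed at P28 alone this share was 20.5%, and for genes listed at P28.5 alone 2.31%. Among plus-strand members with a kept position within 2000 bp, 59.8% of 184 gained and 43.8% of 130 lost positions lay downstream of it.

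Alternative promoters of the same gene could be followed where they were far apart. Annotated 5′ ends less than 1000 bp apart were joined into start regions, and 494 of the 1614 plus-strand protein-coding members had at least 2 regions. In 424 of them (85.8%) 1 region was listed at both ages and no other region at either. All regions were listed at both ages in 13 genes, a region was listed at P28 alone in 35 and at P28.5 alone in 21. The region listed at both ages included the first, most upstream one in 327 genes (66.2%). A region without a listed position may also be one that the catalogue of TSSs the authors clustered did not hold, which was not tested.

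Examples with the longest distances between a kept and a lost start were Ahcyl2 (91203 bp), Chd9 (79784 bp), Fer (73991 bp), Lims1 (47988 bp) and Tdrd7 (26670 bp). Ahcyl2, related to the enzyme that hydrolyses S-adenosylhomocysteine, kept 2 positions at its upstream promoter and lost 3 at an internal one. Fer, a tyrosine kinase, kept 5 upstream positions and lost 1 internal. Chd9, a chromodomain remodeler, showed the reverse order, since it lost its most upstream position and kept 1 internal. Tdrd7, a Tudor protein of germ cell granules, kept 1 position and lost 1 nearby, at 295 bp, and 1 far downstream. With Ppara, Rbm46os and 2310035C23Rik completed the 8 longest distances between starts near annotated 5′ ends of the gene.

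Tex14, needed for the intercellular bridges of germ cells, went the other way. It kept 4 positions in the gene body, 15646 to 26272 bp from the nearest of its annotated starts, and at P28.5 gained 3 that were 5 bp or less from such a start. These were all 4 of the kept positions inside an own gene.

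In the 48 genes with no position in common, the distance between the ages ran over a wide range. The shortest distances between the ages were 308 bp in Asb1, 352 bp in Rnf214, 452 bp in Hirip3 and 499 bp in Pard6a. The longest were 285045 bp in Pcmtd1, 438967 bp in Lrriq3, 496195 bp in Ccl27b and 551138 bp in Fut8. In Fut8, Pcmtd1 and Lrriq3 the P28 position lay outside the RefSeq gene. The P28.5 positions were within 2000 bp of one of its annotated starts, and at most 84 bp from one in Fut8 and Pcmtd1. Ccl27b showed the reverse, with P28 positions at most 1 bp from an annotated start and its P28.5 position outside the gene.

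CpG content separated kept and gained positions from distant lost ones. CpG content here compares the CpGs counted within 500 bp either side with the number its C and G content predicts, a property of the genome that the selection did not use. Its median was 0.801 (quartiles 0.714 and 0.882) around kept positions, 0.792 (0.693 and 0.870) around gained and 0.526 (0.229 and 0.760) around lost ones. Outside the set, it was 0.442 around positions of genes listed at P28 alone and 0.790 around those of genes listed at P28.5 alone. Lost positions within 2000 bp of a kept one had a median of 0.750, those farther away but near an own 5′ end 0.282 (n = 43), and those farther away and elsewhere 0.190 (n = 57). Only 8 gained positions lay over 2000 bp from a kept position of their gene, with a median of 0.686. Members with no kept position stand outside this split, and their 66 lost positions had a median of 0.302 and their 67 gained ones 0.804. Usp2 went against the order in part. Its 4 lost positions at the downstream promoter had values of 0.698 to 0.814, above the 0.612 to 0.685 of its 5 kept ones, and its other lost positions had 0.205 and 0.207.

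Members as a whole had CpG-rich promoters. The median at the gene's 5′ end was 0.782 over protein-coding members, 0.610 for genes at P28 alone, 0.773 for genes at P28.5 alone and 0.516 over all protein-coding genes. Of the members 47.0% were in the top quintile, against 21.3% and 45.2% of genes at P28 or P28.5 alone. The share of plus-strand protein-coding genes listed at both ages was 14.8% in all, and rose over the quintiles from 2.50% to 4.19%, 8.14%, 24.4% and 34.6%. Protein-coding members that kept all positions had a median CpG of 0.787 and 2 annotated 5′ ends, members that only lost positions 0.749 and 4. Members that only gained positions had 0.751 and 4, those that did both 0.780 and 6, and those with no position in common 0.727 and 3. The unchanged group includes the members with 1 position, which cannot change.

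**Figure D3:**
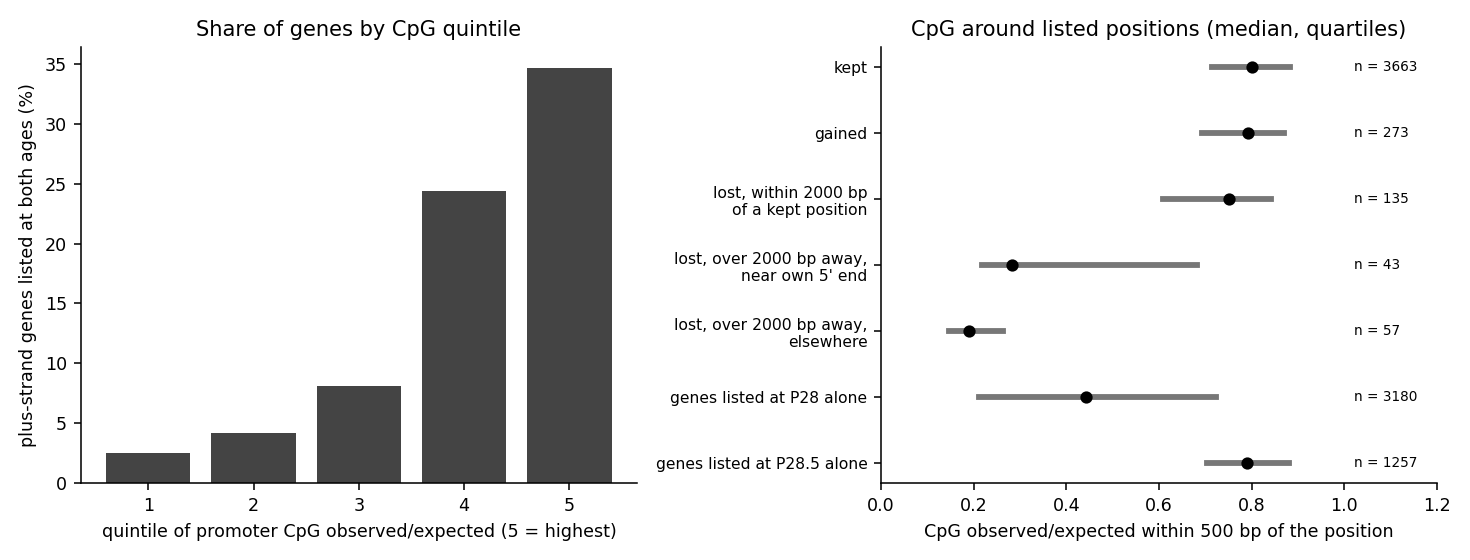
Left, the percentage of plus-strand protein-coding genes listed at both ages (y) by quintile of promoter CpG observed/expected (x). Right, CpG observed/expected within 500 bp of listed positions (x) for each kind of position (rows), with the median as a point and the quartiles as a bar. The medians of kept and gained positions sit near 0.8, and those of lost positions over 2000 bp from a kept one at 0.282 or below.

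Most members were on the plus strand. Of the protein-coding members 87.4% were on the plus strand, against 49.9% of all protein-coding genes, and 14.8% of plus-strand but 2.14% of minus-strand genes were members. On the plus strand 55.1% of kept positions near an own 5′ end equalled an annotated one. For minus-strand members these positions lay a median of 86.5 bp from it, and 76.4% were upstream. Of the 315 kept positions of minus-strand members, 34 matched a minus-strand 3′ end, 44 a plus-strand 5′ end and 1 a minus-strand 5′ end. Starts of minus-strand genes were thus seldom in the lists as such. The plus-strand share is therefore a property of the listed coordinates and cannot be read as a difference in ARID2 between strands, and shares of gene classes are also given for plus-strand genes.

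The CCAAT box, a short motif bound by the factor NF-Y, was commoner in members than in genes listed at either age by itself. The most upstream RefSeq promoter was searched in 1569 members and 17492 protein-coding genes on both strands, and matches describe letters and not binding. CCAAT was present in 48.5% of members, 37.3% of genes at P28 alone, 38.6% of genes at P28.5 alone and 39.2% of all promoters. The difference was larger for at least 2 boxes, at 25.8% of members, 11.03%, 14.5% and 13.5%. Boxes starting 100 to 51 bases before the start were found in 23.5%, 12.5%, 14.9% and 14.8%.

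The difference in CCAAT boxes was also seen within the top CpG quintile, but less clearly in quintile 4. Within the top CpG quintile, 48.1% of 744 member promoters had a CCAAT box, against 28.9% of 322 at P28 alone, 32.5% of 265 at P28.5 alone and 31.6% of 2179 listed at neither age. In quintile 4 the shares were 48.9%, 38.7%, 45.7% and 40.4%. The interval for the 184 genes at P28.5 alone in quintile 4, 38.6 to 52.9%, covered the share of members. At least 2 boxes were found there in 25.7%, 13.1%, 16.3% and 15.2%. By gene class, over classes with at least 5 member promoters, the share of members with CCAAT ranged from 2 of 11 histone-modifying enzymes to 9 of 10 histone genes, with 6 of 9 kinetochore genes between them.

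The RefSeq promoters of 2 members with more than 1 box show the arrangement, with CCAAT and its reverse complement ATTGG in capitals. Kntc1 (chr5:123749476-123749775, plus strand), which encodes a kinetochore protein of the spindle checkpoint, has 2 boxes, beginning 202 and 12 bases before the start. Fer (chr17:63863731-63864030, plus strand) has 4, beginning 161, 79, 35 and 3 bases before it. Each window held 4 positions kept at both ages.
Kntc1: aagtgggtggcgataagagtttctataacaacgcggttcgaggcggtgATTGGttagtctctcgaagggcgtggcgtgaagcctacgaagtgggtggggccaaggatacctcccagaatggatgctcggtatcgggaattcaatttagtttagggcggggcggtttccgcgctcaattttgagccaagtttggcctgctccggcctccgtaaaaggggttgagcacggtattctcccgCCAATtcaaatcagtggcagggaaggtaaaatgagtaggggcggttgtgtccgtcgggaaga
Fer, kept start: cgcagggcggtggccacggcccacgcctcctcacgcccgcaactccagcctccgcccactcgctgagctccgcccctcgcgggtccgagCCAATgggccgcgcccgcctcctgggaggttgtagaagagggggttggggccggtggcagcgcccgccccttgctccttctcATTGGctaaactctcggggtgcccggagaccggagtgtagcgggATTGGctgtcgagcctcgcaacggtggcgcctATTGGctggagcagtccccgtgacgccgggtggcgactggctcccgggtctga

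**Figure D4:**
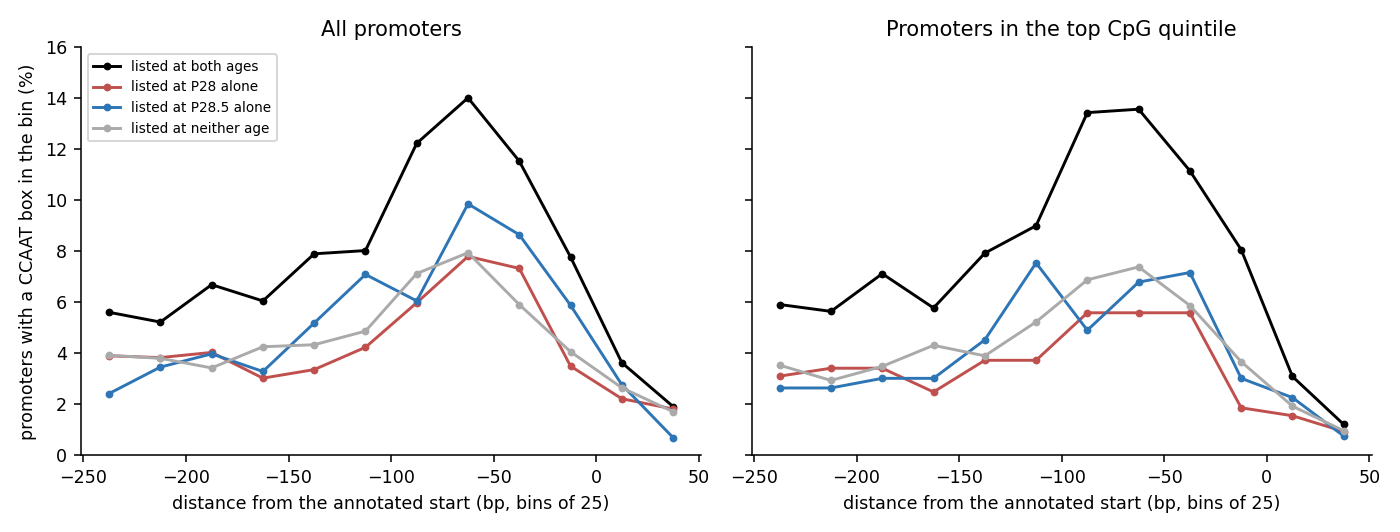
The percentage of promoters with a CCAAT box on either strand (y) starting in each bin of 25 bases around the annotated start (x), for genes listed at both ages, at either age by itself and at neither age. Left, all promoters, and right, promoters in the top CpG quintile. In members the share over all promoters peaks at 14.0% in the bin that begins 75 bases before the start, and it lies above the other groups there in both panels.

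Most other motifs were also commoner in members than over all promoters, several of them by a larger factor than CCAAT, but not always commoner than in genes listed at P28.5 alone. The ETS motif CCGGAAGT was present in 10.7% of members and 5.28% of all promoters, the NRF1 motif GCGCATGC in 8.92% and 3.61%, the GC box GGGGCGGG in 38.0% and 22.3%, and the cyclic AMP response element TGACGTCA in 4.33% and 2.33%. The YY1 motif AAGATGGC was in 5.74% and 3.21%, the E-box CACGTG in 12.05% and 7.91%, and the ZNF143 motif ACTACAA in 5.04% and 3.82%. The X-box letters GTTGCCA, bound by RFX factors, were in 3.44% and 4.20%, and the MYB motif TAACNG was in 19.0% and 20.8%. Genes at P28.5 alone had ETS in 11.4%, the cyclic AMP response element in 5.88% and the E-box in 12.6%, all above the members, and NRF1 in 7.61%, the GC box in 34.4%, YY1 in 5.54% and ZNF143 in 5.02%. TATAAA in the window 45 to 15 bases before the start, on the plus strand of the gene alone, was in 0.892% and 2.98%. Within the top CpG quintile the GC box was in 39.0% of members and 38.8% of all promoters, ETS in 9.14% and 8.72%, NRF1 in 9.41% and 7.46%, and YY1 in 6.85% and 5.47%. There the E-box was in 11.96% and 11.94%, TATAAA in 0.941% and 1.03%, the X-box letters in 3.23% and 3.45%, the cyclic AMP response element in 4.44% and 4.10% and ZNF143 in 4.44% and 3.59%. MYB turned round, at 18.3% of members and 16.1% of all. CCAAT, at 48.1% and 34.9%, had the largest difference of the 11 motifs within this quintile.

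Of 41 gene classes, 3 of cell division had the highest plus-strand shares, and aminoacyl-tRNA synthetases came next (10 of 20). The anaphase-promoting complex is the ubiquitin ligase that starts anaphase, and 7 of its 20 genes were members (6 of 9 on the plus strand, 66.7%). These were Anapc2, Anapc4, Anapc10, Anapc13, Anapc15, Cdc27 and the E2 enzyme Ube2c, all with unchanged positions. Cohesin and condensin genes, which hold and compact chromosomes, had 12 members of 32 (11 of 18 on the plus strand, 61.1%), all unchanged, among them Smc2, Smc3, Smc4, Smc6, Ncapg and the meiotic cohesin subunit Stag3. Cyclins and cell cycle kinases had 16 of 54 (15 of 27, 55.6%), with the inhibitory kinase Wee1 unchanged at 2 positions, Cdc25a rising from 1 position to 4 and Cdk11b falling from 6 to 4. These shares can be read against 14.8% of all plus-strand genes, or 24.4% and 34.6% of those in quintiles 4 and 5 of CpG content.

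Other classes of cell division lay among those of RNA and protein synthesis. Kinetochore and spindle checkpoint genes had 9 members of 53 (9 of 21 on the plus strand, 42.9%), all unchanged. Kntc1 kept 4 positions, Bub3 and Knl1 3 each, and Cenpn 2. Centrosome and centriole genes had 12 of 68 (9 of 26, 34.6%), all unchanged, led by Odf2, Azi2, Cep192 and Cep70. Spindle proteins and mitotic kinesins had 18 of 59 (14 of 34, 41.2%). There Kif20a, Rae1 and Tubd1 gained a position, Ckap5 lost 1, and Kif15, Prc1 and Tacc3 kept 4, 3 and 3. Over both strands, kinetochore genes stood at 17.0% and centrosome genes at 17.6%, above the 8.48% of all genes and below the cytosolic ribosomal proteins (25.6%) and the proteasome (24.5%).

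The kinase gene Aurka and the gene of its activator Bora each had 1 position, at the same base at both ages. For Bora this was its annotated start. Aurka is on the minus strand, and its position lay 116 bp from an annotated 5′ end. The set of the chromosome passenger complex with the phosphatases PP1 and PP2A had 7 of 27 (6 of 16, 37.5%). Its members encode phosphatase subunits and regulators, such as the PP2A inhibitor Ensa, and none was a subunit of the passenger complex itself. Ppp1cc, the PP1 form needed for sperm formation, had positions 25 bp apart at P28 and lost 1, and Ppp2r1a kept its only one.

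DNA repair genes had 19 members of 90 (19 of 45 on the plus strand, 42.2%), among them the mismatch repair genes Msh6 and Pms2, and Mdc1, which kept 6 positions. Genes of meiotic prophase had 7 of 51 (7 of 23, 30.4%), all unchanged. They were Sun1, Mdc1, Meiob, Meioc, Sycp3, Ythdc2 and Zcwpw1. Genes of the piRNA pathway, which silences transposons in germ cells, had 7 of 37 (7 of 16, 43.8%), and Tdrd9, Rnf17, Tdrkh and Ybx2 kept 5, 4, 4 and 3 positions.

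Among chromatin genes, several histone-modifying enzymes changed positions. Of the 16 histone-modifying enzymes among the members (of 96, and 15 of 45 on the plus strand, 33.3%), 10 were unchanged, against 82.5% of protein-coding members. That share includes members with 1 position, which cannot change, and of members with at least 2 positions 68.9% were unchanged. Hdac2 fell from 3 positions to 1 and Kdm4c from 3 to 2, Nsd3 rose from 2 to 5 and Kmt5b from 1 to 2, and Nsd1 and Setd2 had none in common. Whether this class differs from the others was not tested. Of 29 SWI/SNF subunit genes 4 were members (3 of 15), all unchanged. They were Smarca4 with 5 positions, Actl6a with 2, and Bcl7b and Dpf2 with 1 each. Core and linker histones had 10 of 84 (10 of 47, 21.3%).

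Genes of RNA processing and protein synthesis made up another large group. Splicing and RNA-binding genes had 30 members of 104 (24 of 54 on the plus strand, 44.4%), with 26 unchanged. Aminoacyl-tRNA synthetases had 11 of 38 (10 of 20), cytosolic ribosomal proteins 22 of 86 (19 of 48, 39.6%) and translation initiation factors 13 of 56 (13 of 33, 39.4%). Mitochondrial ribosome genes had 14 of 77 (10 of 46, 21.7%) and respiratory complex I 5 of 49 (4 of 18, 22.2%). The proteasome had 12 of 49 (12 of 29, 41.4%), all unchanged.

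Nuclear pore genes had 8 of 30 (7 of 19, 36.8%), transcription factors of the basal machinery with Mediator 16 of 84 (15 of 44, 34.1%), DNAJ cochaperones 9 of 43 (8 of 23, 34.8%) and DEAD and DEAH box helicases 7 of 53 (7 of 21, 33.3%). Rab GTPases had 8 of 59 (8 of 26, 30.8%), ubiquitin-specific proteases 8 of 56 (6 of 28, 21.4%), zinc finger Zfp genes 44 of 394 (39 of 199, 19.6%) and F-box genes 4 of 78 (4 of 31, 12.9%).

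**Figure D5:**
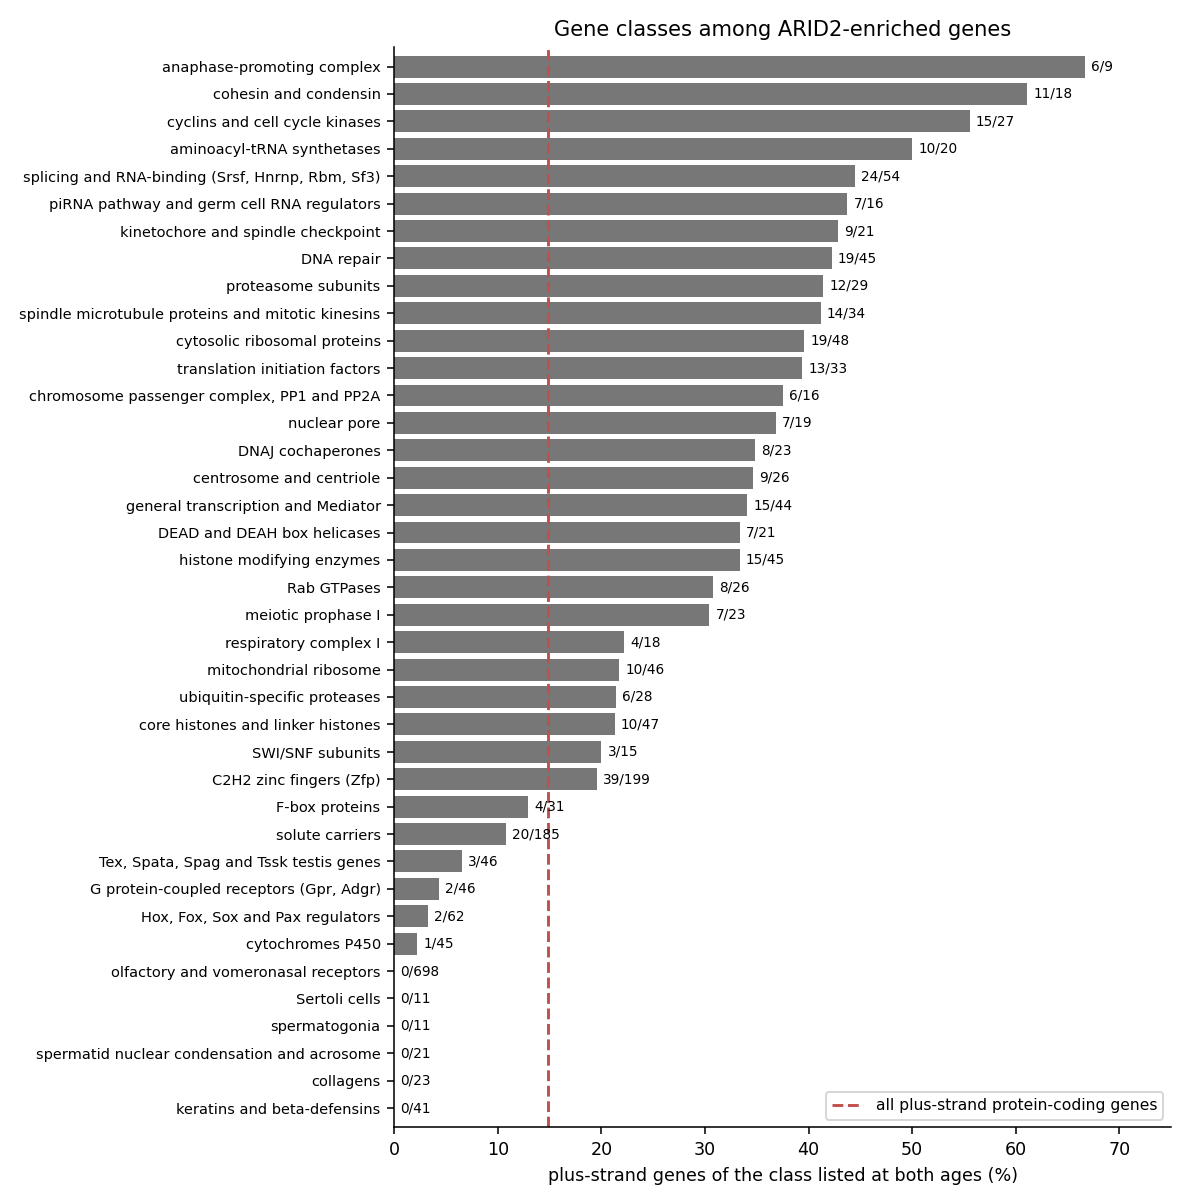
The percentage of plus-strand genes of each class that were listed at both ages (x), with the number of members and of genes beside each bar, for classes with at least 9 plus-strand genes. The dashed line marks 14.8%, the share over all plus-strand protein-coding genes. Anaphase-promoting complex, cohesin and condensin, and cyclins lead at 66.7%, 61.1% and 55.6%, and the classes at the bottom had no member.

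Solute carriers and several classes of largely tissue-restricted genes had few members. Solute carriers had 24 members of 387 (20 of 185 on the plus strand, 10.8%), and Tex, Spata, Spag and Tssk testis genes 4 of 80 (3 of 46). G protein-coupled receptors had 3 of 102 (2 of 46) and cytochromes P450 3 of 98 (1 of 45). Hox, Fox, Sox and Pax regulators had 2 of 111 (2 of 62), Foxo1 and Sox30. Olfactory and vomeronasal receptors had 1 of 1474 (0 of 698 on the plus strand). This was the minus-strand gene Vmn2r50, listed at its 3′ end. The P450 gene Cyp3a41a was likewise listed at its 3′ end, so neither had a listed start. None of 43 genes of spermatid condensation and the acrosome, 44 collagens and 151 keratins and beta-defensins was a member. Most of these classes had a median CpG content below the 0.516 of all protein-coding genes, from 0.126 in olfactory and vomeronasal receptors to 0.449 in collagens. Solute carriers (0.520) and Hox, Fox, Sox and Pax regulators (0.700) did not. In CpG quintiles 1, 2 and 3, 2.50%, 4.19% and 8.14% of plus-strand genes were members. Whether these classes differ from genes of like CpG was not tested. The marker lists of other testis cells were too short to read. They had 0 of 16 Sertoli, 0 of 9 Leydig, 0 of 10 macrophage and 0 of 20 spermatogonial genes, with upper 95% limits of 19.4%, 29.9%, 27.8% and 16.1%, all above the 8.48% of all genes, and 11, 3, 5 and 11 of their genes on the plus strand. The lists hold no expression values, so the cells named by the labels could not be checked against marker levels.

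No X-linked gene was a member, out of 963, and 2 of 253 Y-linked genes were. The P28 list held 0 X-linked protein-coding genes and the P28.5 list 2, so this lack belongs to the lists and is not particular to the members. In late prophase the X and Y of male germ cells are known to be transcriptionally silenced, and transcription was not measured here. On autosomes the share of protein-coding genes ranged from 7.35% on chromosome 2 to 11.7% on chromosome 12. The only run of at least 4 neighbouring protein-coding members was Emc1, Ubr4, Iffo2 and Aldh4a1 on chromosome 4.

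Members faced a neighbouring gene more often than other genes did. Of the plus-strand protein-coding members 33.4% had a minus-strand gene starting no more than 1000 bp upstream, against 14.5% at P28 alone, 25.4% at P28.5 alone, 8.99% at neither age and 14.1% of all. Members are rich in CpG, and these shares were not compared among genes of like CpG content. In 185 members (9.39%) a position lay within 1000 bp of a position of the same other gene at both ages, and that neighbour is a member by the rule of selection. A neighbour as close, listed at the same age, was found for 7.07% of genes at P28.5 alone and 1.74% of genes at P28 alone. Pairs of this kind joined Aurka with Cstf1, Bora with Mzt1, Anapc10 with Abce1, Pms2 with Aimp2, and Cops5 with Cspp1.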

How the data were processed

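ARID2 CUT&RUN was analysed for 2 libraries at P28 and 2 at P28.5. The authors trimmed the reads with TrimGalore, mapped them to mm10 (Bowtie2), left out duplicates and blocklisted regions, scaled coverage with csaw factors, took log2 ratios to the control, averaged replicates and ran k-means around RefSeq TSSs in a window of 4 kb. The deposited lists hold chromosome, position and gene symbol per row (11553 rows at P28, 8514 at P28.5), with no counts, signal or score, so the depth behind each TSS is unknown and nothing could be tested over replicates. The RefSeq release used for the clustering is not given in the sources used here. Neither the BRG1 libraries nor the signal tracks were analysed.

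Rows with the same position and symbol were joined. A position was kept when the same symbol had the same base at both ages. Of the symbols, 1921 matched RefSeq as written and 46 by a synonym of 1 gene. An own 5′ end counted as near within 2000 bp. Promoters came from the RefSeq table of GRCm38.p6, 250 bases before to 50 after a start. Intervals are Wilson 95%. The code was checked on simulated lists. Tools were matplotlib 3.10.9, scipy 1.17.1, numpy 2.4.6 and pandas 2.3.3 under Python 3.11.15.

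The members, the 41 gene classes, the 11 motifs and the rule for named genes were chosen with earlier results of these data known. Named genes were those with the most kept, lost or gained positions, the longest distance between alternative starts, the 4 members of each class with the most kept positions, the shortest and longest distances without a shared position, and SWI/SNF subunits with 6 genes the study examined. Some genes that this rule names are not reported here. Others named in the text (class members that changed, and pairs of neighbours) were chosen after their values were seen, as were the CCAAT positions and counts, the pairs of positions, the matches to transcript ends and the CpG content around positions.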

Additional observations from a re-analysis of the deposited data

How the results depend on the processing

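Values are percentages of members or positions, as in the report. Counting a position as kept when one of the same gene lay within 100 bp gave 84.6% of members unchanged and 0.457% that both lost and gained, and 93.9% of P28.5 positions already listed at P28. Within 500 bp these were 90.7%, 0.0507% and 97.3%, with 5.53% only losing, 1.47% only gaining and 95.0% of P28 positions kept. Members with at least 2 positions alone gave 68.9% unchanged, 14.4% only losing, 10.9% only gaining, 1.39% doing both, 4.45% with no position in common, and 90.2% of P28 and 91.0% of P28.5 positions kept. Positions near an own 5′ end alone gave 86.8% unchanged, 5.53% only losing, 0.895% with none in common, and 94.8% and 94.2% of positions kept. Measured on the 300-base promoter, 43.4% of members were in the top CpG quintile. A 10 bp tolerance, plus-strand members alone, counting rows, other distances to a neighbour and other ways to match symbols stayed within the counting interval or 1.5 times the count. Leaving out each ARID2 library was not run, because each list was made from averaged libraries. No paired analysis was possible because the lists hold no value per library.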

Other observations

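Most noncoding members had 1 position over both ages, and by construction such a member cannot change. Their unchanged counts therefore cannot be set against those of members with more positions. Of the 91 long noncoding RNAs 84 had identical positions at both ages, 5 only lost positions, 1 only gained and 1 had none in common. Among them were Gas5 and Dancr, antisense transcripts such as Brip1os and Kif16bos, and Dmrt1i with 2 kept positions. Of 18 miRNA genes 16 were unchanged, among them Mir132 and Mir212, which lie next to each other, Mir484, Mir320 and Mir9-3. Mir193a fell from 2 positions to 1 and Mir8092 from 3 to 1. The small RNA genes Snord49b, Snord55, Rnu12 and Rmrp each kept 1 position. Rmrp, the RNA of the RNase MRP complex, lay within 1000 bp of a position of Ccdc107, and Snord49b of 2410006H16Rik.

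The same base carried different symbols at the 2 ages in 8 of 3671 shared positions, 6 of them on chromosome 4 in families of near-identical genes (Gm13285, Gm13287 and their neighbours, and Ccl21c). Among member positions, 1 of the 301 lost ones was of this kind and 0 of the 273 gained ones. Which copy the reads of such near-identical genes came from was not tested.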
